A study of Mus musculus with 3 samples.

Results

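The guanylate-binding proteins (GBPs) and the immunity-related GTPases (IRGs) are large GTPases that cells make in response to interferon gamma. The 9 genes described here, chosen by symbol, were *Gbp2*, *Gbp3*, *Gbp5*, *Gbp6*, *Gbp7*, *Irgm1*, *Irgm2*, *Igtp* and *Iigp1*, of 32287 features in the count matrices. They were followed in single Müller glia (MG), the radial glia of the retina, sorted from mouse retinas. The study asked how forced cell cycle entry alters MG.

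All mice carried Glast-CreERT2; R26-CAG-LSL-Tdt, in which a Cre driven by the glial gene *Glast* turns on tdTomato after tamoxifen. Tamoxifen was given at 75 mg/kg for 5 days from postnatal day 20 (P20) by the labels, while the study's methods give another dose and start. At P28 the Control eyes received AAV7m8-GFAP-GFP-LacZsh alone, a vector with a *GFAP* promoter, GFP and a control hairpin. CCA (cell cycle activator) eyes received a 9 to 1 mixture of AAV7m8-GFAP-cyclin D1-p27sh, which supplies cyclin D1 and knocks down p27Kip1, with the Control vector. CCANT eyes received the same mixture, then the excitotoxin NMDA at P35 and the histone deacetylase inhibitor Trichostatin A (TSA) at P37. All retinas were taken at P51, 2 to 4 retinas were pooled per group, and tdTomato-positive cells were sorted. Each group was a single 10x library, so no test between groups could be made. Every interval below is a 95% interval that covers counting error only, and the CCA and CCANT comparisons share the Control library. Intervals of levels and ratios take UMIs as independent and leave out the spread between cells and between mice.

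The cells were those kept in the authors' joint count table: 3758 in Control, 3890 in CCA and 3278 in CCANT, with a median of 24235.5, 20710.5 and 20721.5 unique molecular identifiers (UMIs) per cell. Between 2 and 8 cell barcodes were shared by any 2 libraries among these cells. *Cdkn1b*, which encodes p27Kip1 and is targeted by the hairpin, gave 225.9 CPM (UMIs scaled to a library total of 1000000) in Control cells, 84.4 in CCA cells and 105.7 in CCANT cells. The sex of the mice differed between libraries. With at least 3 UMIs of Y-linked genes or of *Xist* asked for, 3505 Control cells were Y-linked and 0 *Xist*, 0 CCA cells were Y-linked and 3859 *Xist*, and CCANT held 1183 and 1718. By cluster, 3711, 3406 and 2769 kept cells were MG-like, and 0, 246 and 68 lay in a cycling cluster. Nearly all others were in clusters of mixed markers (38, 210 and 426) or rod-like (9, 27 and 14).

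GBPs and IRGs are known for cell-autonomous defence: they gather on the vacuoles of intracellular pathogens and help to break them open. Interferon gamma binds the receptor made of *Ifngr1* and *Ifngr2*, the kinases *Jak1* and *Jak2* then activate factors that bind gamma-activated sites (GAS), and *Irf1* and its relatives bind interferon-stimulated response elements (ISRE). Type I interferons share part of that route through *Ifnar1* and *Ifnar2*. Glia, endothelium and microglia all respond to interferon gamma, while its producers are chiefly T cells and NK cells.

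*Gbp2*, *Gbp3*, *Gbp5* and *Gbp7* lie in a row on chromosome 3 of GRCm38 (142620602 to 142638008, 142560026 to 142573209, 142493978 to 142522344 and 142530342 to 142550149). *Gbp6* lies on chromosome 5 (105270702 to 105293698). *Irgm1* (48861968 to 48871683), *Igtp* (58199556 to 58207591) and *Irgm2* (58199618 to 58222782) lie on chromosome 11. *Igtp* and *Irgm2* overlap on the plus strand, so the way their UMIs were divided is uncertain, and the similar *Gbp* genes carry the same doubt.

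RefSeq promoter windows of 300 bases (250 before the gene start, 50 after; GRCm38.p6) were found for 7 of the 9 genes and searched on both strands for GAS as TTCNNNGAA and for ISRE as GAAANNGAAA. All 7 held an ISRE in at least 1 of their windows, against 3.99% of the 27025 genes in the table. *Gbp5*, *Gbp7*, *Igtp* and *Irgm2* also held a GAS, against 9.55% of all genes, and 0.540% of all genes held both. These stretches are shown because they hold the ISRE that the 7 promoters have in common, and the GAS near it in 4 of them. They read 5′ to 3′ on the strand of the gene, with motif letters in capitals. An ISRE on the opposite strand reads as its reverse complement, the GAS motif is its own reverse complement, and adjacent ISREs overlap in *Gbp3* and *Irgm1*.
Gbp2 (chr3:142620594-142620623, plus strand): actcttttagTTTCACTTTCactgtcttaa
Gbp3 (chr3:142559989-142560024, plus strand): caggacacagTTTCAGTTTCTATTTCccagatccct
Gbp5 (chr3:142496759-142496900, plus strand): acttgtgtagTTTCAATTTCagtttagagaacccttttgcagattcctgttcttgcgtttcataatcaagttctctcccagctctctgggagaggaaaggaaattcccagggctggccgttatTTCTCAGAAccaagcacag
Gbp7 (chr3:142530220-142530302, plus strand): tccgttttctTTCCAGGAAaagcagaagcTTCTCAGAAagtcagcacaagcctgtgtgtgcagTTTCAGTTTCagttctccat
Irgm1 (chr11:48871425-48871460, minus strand): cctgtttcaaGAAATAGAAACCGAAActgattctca
Igtp (chr11:58199501-58199541, plus strand): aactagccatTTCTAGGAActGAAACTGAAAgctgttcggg
Irgm2 (chr11:58214892-58214932, plus strand): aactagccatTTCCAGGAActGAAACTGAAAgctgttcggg

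The *Igtp* and *Irgm2* stretches were identical at 40 of 41 bases and differed by T14C, counted from the 5′ end of the *Igtp* stretch. An ISRE began 24 to 64 bases before the RefSeq start in 6 of the 7, and 165 bases before it in *Gbp5*. For *Gbp2*, *Gbp3*, *Gbp5*, *Irgm1* and *Irgm2* that start lies inside the GENCODE gene interval given above, farthest from its end for *Gbp5* and *Irgm2*. The GAS shown for *Gbp5* began 52 bases before the RefSeq start, and a second one, 245 bases before it, is outside the stretch. A match of letters is a description of the window and no evidence that a factor binds there.

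Every member was lower in CCA than in Control, and lower again in CCANT. Summed over the 9 genes, Control held 2027 CPM, CCA 832.3 and CCANT 410.02. CCA over Control gave a log2 ratio of -1.28 (-1.30 to -1.27), and CCANT over Control one of -2.31 (-2.32 to -2.29). In CCA 6 of 9 members were at least 2-fold lower, against 1.18% of the 18327 genes with at least 50 UMIs. In CCANT 9 of 9 were, against 2.46%. The median log2 ratio of the members was -1.25 in CCA and -2.39 in CCANT, beside 0.07 and 0.03 over all those genes. The interval lay below 0 for all 9 members in each comparison, which was also true of 20.9% of genes in CCA and 25.1% in CCANT at this depth. At least 1.5-fold lower were 7 of 9 in CCA, against 3.63%, and 9 of 9 in CCANT, against 6.53%.

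**Figure D1:**
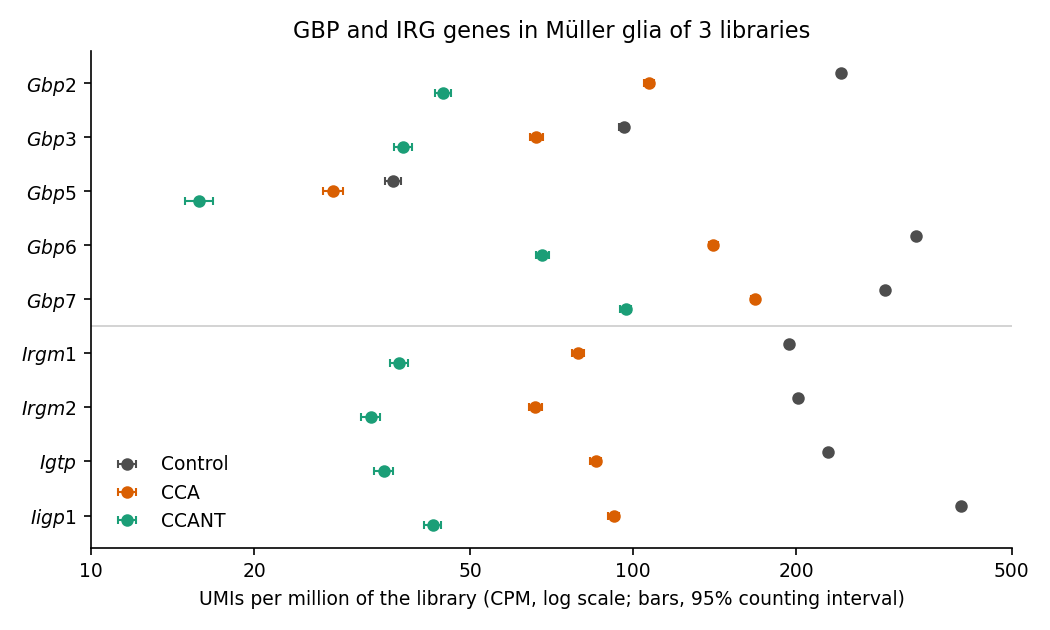
CPM of each of the 9 genes (log axis) in the kept cells of the Control, CCA and CCANT libraries, with 95% counting intervals as bars; a horizontal line parts the 5 GBPs from the 4 IRGs. In each row the Control point lies farthest right and the CCANT point farthest left, with the widest gap for *Iigp1* and the narrowest for *Gbp5*.

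The IRGs differed between libraries by more than the GBPs. The 4 IRGs summed to 1028, 322.4 and 147.1 CPM in the order Control, CCA, CCANT, which is kept below. Their log2 ratios to Control were -1.67 (-1.69 to -1.65) and -2.81 (-2.83 to -2.78). The 5 GBPs summed to 999.1, 509.9 and 263.0 CPM, log2 ratios of -0.97 (-0.99 to -0.95) and -1.93 (-1.95 to -1.90). All 4 IRGs but only 2 of the 5 GBPs, *Gbp2* and *Gbp6*, were at least 2-fold lower in CCA, where 1.18% of all genes were.

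*Iigp1* encodes an effector IRG that is loaded onto pathogen vacuoles. The gene lies on chromosome 18 (60376027 to 60392634). It had 403.7, 92.0 and 42.7 CPM, the largest ratios of the 9 genes at -2.13 (-2.17 to -2.10) and -3.24 (-3.30 to -3.19). *Irgm1*, *Irgm2* and *Igtp* encode the regulatory IRGs of the cell's own membranes, which keep the effectors inactive there. *Irgm1* had 194.2, 79.1 and 36.9 CPM, or log2 ratios of -1.30 and -2.39. *Irgm2* had 201.6, 66.0 and 32.8 CPM, or log2 ratios of -1.61 and -2.62. *Igtp* had 228.6, 85.2 and 34.6 CPM, or log2 ratios of -1.42 and -2.72. Regulators and effector were thus both at their lowest in CCANT.

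*Gbp2*, whose protein coats vacuoles and bacteria, had 242.3, 107.2 and 44.6 CPM, log2 ratios of -1.18 and -2.44. *Gbp6* was at 333.5, 140.7 and 68.0 CPM, log2 ratios of -1.25 and -2.29. *Gbp7*, whose protein helps to assemble NADPH oxidase, was at 291.3, 167.8 and 97.0 CPM, log2 ratios of -0.80 and -1.59. The remaining GBPs differed less in CCA. *Gbp3* was at 96.0, 66.3 and 37.6 CPM, log2 ratios of -0.53 and -1.35. *Gbp5*, which promotes inflammasome assembly, was at 36.1, 27.9 and 15.8 CPM, log2 ratios of -0.37 (-0.45 to -0.29) and -1.19 (-1.29 to -1.09).

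The step from CCA to CCANT was more even among the genes. Its log2 ratios ran from -0.79 for *Gbp7* to -1.30 for *Igtp*, with -1.11 for *Iigp1*. In this step 6 of 9 members were at least 2-fold lower, against 2.62% of genes, and 0 were 2-fold higher, against 1.07%. At 1.5-fold 9 of 9 were lower, against 7.07%, and the interval lay below 0 for 9 of 9, against 28.1%. The summed ratio of CCANT over CCA was -1.02 (-1.041 to -1.002).

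The share of cells with a UMI followed the same order, when each cell was thinned to 8000 UMIs (36, 103 and 53 shallower cells left out). *Gbp6* was seen in 80.3% of Control cells (79.0% to 81.6%), 48.5% of CCA cells and 34.7% of CCANT cells. *Gbp7* was seen in 76.4%, 56.9% and 48.8%. *Igtp* was seen in 67.5%, 32.5% and 21.4%, and *Gbp2* in 64.4%, 34.7% and 24.3%. For each of these genes the CCANT share was the lowest and the Control share the highest. The shares of *Irgm2* were 63.3%, 28.8% and 19.5%, and those of *Irgm1* 61.5%, 31.4% and 21.5%. For *Iigp1* they were 49.7%, 22.1% and 16.5%. *Gbp3* was seen in 45.7%, 31.3% and 24.1%, and *Gbp5* in 18.1% (16.9% to 19.4%), 14.1% and 10.1%. Without thinning the 9 shares ran from 40.6% to 95.8% in Control, 28.2% to 79.2% in CCA and 23.4% to 76.3% in CCANT. At least 1 member was seen in 99.6% of thinned Control cells, 92.6% of CCA cells and 89.7% of CCANT cells.

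Rods are not known for these proteins, and their shares stand here for the background, although whether rod UMIs were free RNA was not tested. At a common depth of 3000 UMIs the share with any member was 94.1% in Control MG-like cells and 28.9% in Control rod-like cells, whose unthinned medians were 23354.5 and 5071 UMIs. In CCA the same shares were 71.7% and 12.3%, and in CCANT 61.1% and 8.48%. For single genes in Control, *Gbp6* gave 53.5% in MG-like and 6.35% in rod-like cells, and *Iigp1* 35.9% and 3.53%. Shares in MG-like cells stood above those in rod-like cells for each of the 9 genes in each library.

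Within a library the members varied widely from cell to cell. The 9 genes together gave a median of 11 UMIs per thinned Control cell (5th to 95th percentile 3 to 44). The median CCA cell had 3 (0 to 21.7), and the median CCANT cell 2 (0 to 8). The Control median was reached by 13.5% of CCA cells (12.4% to 14.6%) and 2.88% of CCANT cells (2.33% to 3.52%). Above the 95th percentile of Control lay 180 Control cells, 59 CCA cells and 7 CCANT cells. The libraries overlapped in range, since the highest cell held 247 UMIs in Control, 200 in CCA and 133 in CCANT. A cell showed a median of 5 of the 9 genes in Control, 3 in CCA and 2 in CCANT, and all 9 genes were seen in 135, 55 and 6 cells.

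**Figure D2:**
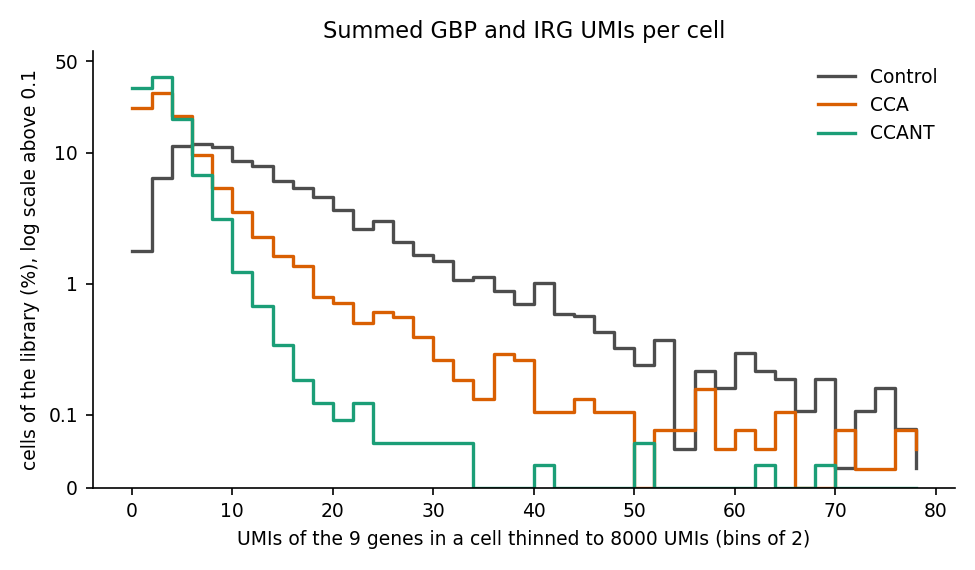
Share of cells in each library (%, log axis above 0.1) by the summed UMIs of the 9 genes per cell thinned to 8000 UMIs, in bins of 2 from 0 to 80. Control peaks at higher counts and all 3 libraries have a tail, longer in CCA than in CCANT.

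*Iigp1* had the highest Fano factor of the 9 genes. This variance over mean at 8000 UMIs was 15.9 in Control, 9.51 in CCA and 8.94 in CCANT, where the median gene had 1.08, 1.12 and 1.10. The tenth of cells with most *Iigp1* held 64.5% of its UMIs in Control, 82.4% in CCA and 79.7% in CCANT, and its median cell held none in any library. *Gbp2* was next, with Fano factors of 6.01, 7.01 and 2.21. *Gbp3* had the lowest, at 1.57, 1.94 and 1.33. The 95th percentile over genes with at least 0.1 UMI per cell was exceeded by 8 of 9 members in Control, 7 in CCA and 3 in CCANT.

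Cells rich in a given member tended to hold others in Control and CCA. The 36 pairs had a median Spearman rho of 0.24 in Control cells (lowest 0.08, highest 0.36), 0.24 in CCA cells (0.14, 0.30) and 0.08 in CCANT cells (0.02, 0.13). CCANT also had the fewest UMIs of these genes, and the value there is too weak in sparse counts to be read. The highest Control pair was *Gbp2* with *Gbp7* at 0.36, both on chromosome 3, followed by *Gbp7* with *Iigp1* and *Irgm1* with *Iigp1* at 0.34. With the sum of the other 8, *Iigp1* reached 0.47 in Control, 0.36 in CCA and 0.15 in CCANT. *Irgm2* was lower in Control, at 0.26, than its neighbour *Igtp* at 0.45. In CCA the values of those neighbours were 0.33 and 0.39. *Gbp5*, seen in the fewest cells, had 0.22, 0.20 and 0.06.

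**Figure D3:**
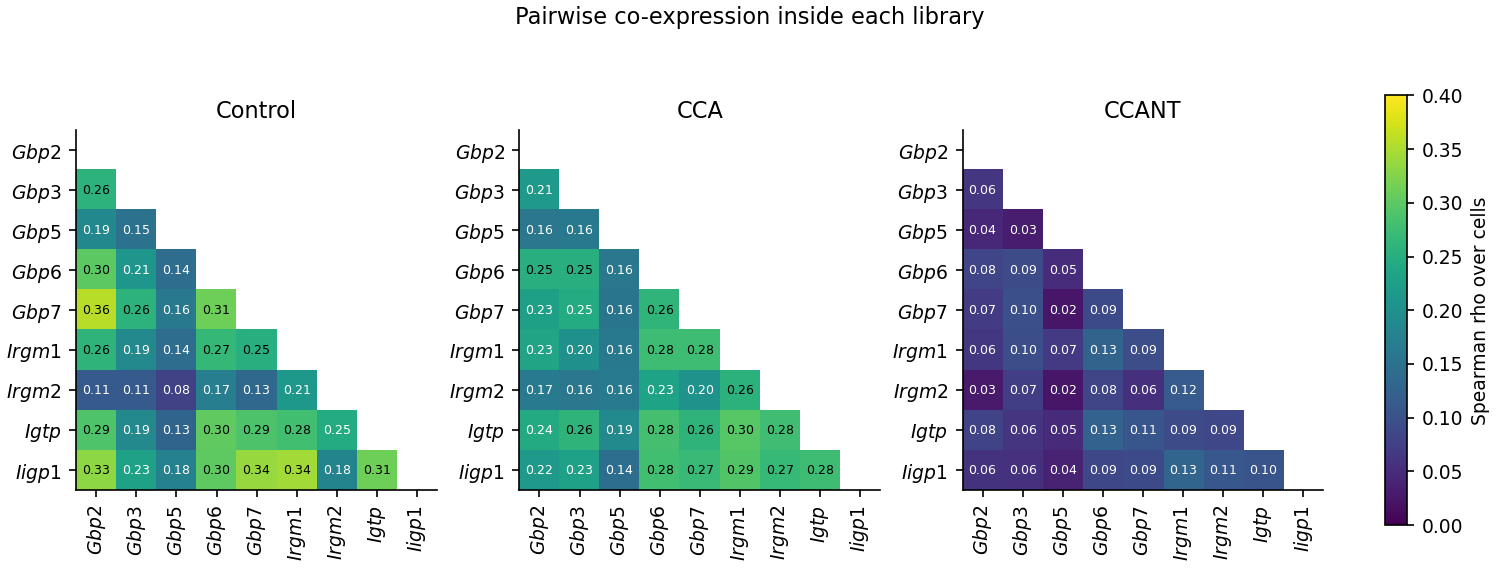
Spearman rho over cells thinned to 8000 UMIs for each pair of the 9 genes, in Control, CCA and CCANT. Values run from 0.08 to 0.36 in Control, 0.14 to 0.30 in CCA and 0.02 to 0.13 in CCANT, and the *Irgm2* row and column are darker than those of *Igtp* in Control.

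Other genes were ranked by their rho with the summed 9 genes. In Control the 99th percentile over other genes was 0.13. Among the most alike in Control were other GTPases of these families, *Tgtp2* (0.42), *Gbp4* (0.36), *Ifi47* (0.36), *Gm4951* (0.35), *Tgtp1* (0.35) and *Gbp10* (0.33). *Cd274*, which encodes PD-L1, had 0.37, *Oasl2* 0.33 and the immunoproteasome gene *Psmb8* 0.33. In CCA the list held genes typical of type I interferon, *Oasl2* (0.42), *Ifit3* (0.41), *Isg15* (0.41), *Ifit1* (0.38), *Rtp4* (0.37), *Ddx60* (0.36), *Trim30a* (0.35) and *Herc6* (0.35), beside *Gm4951* (0.37). In CCANT *Oasl2* and *Isg15* reached 0.25 and *Ifit3* 0.21. These values all come from cells of 1 library and share its depth.

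The pathway around the members was read from lists of receptors, kinases and factors, and other response genes. *Ifngr1*, the ligand-binding chain, was at 41.6, 40.5 and 40.5 CPM in Control, CCA and CCANT, and *Ifngr2*, the signalling chain, at 14.7, 19.1 and 22.4 CPM. The log2 ratios of *Ifngr2* were 0.38 (0.27 to 0.48) and 0.61 (0.50 to 0.71). *Ifnar1* was at 25.8, 25.4 and 26.5 CPM and *Ifnar2* at 61.4, 65.1 and 63.9 CPM. Of the 4 receptor genes, 0 were 2-fold lower or 2-fold higher in either comparison, where 6.34% of all genes were 2-fold higher in CCA and 6.21% in CCANT. Of the ligands, *Ifng* gave 7 UMIs in 3 of the 3758 Control cells and 0 in CCA and CCANT cells. As CPM the intervals overlapped, at 0.029 to 0.151, 0 to 0.044 and 0 to 0.052. *Ifnb1*, *Ifna4*, *Ifnl2* and *Ifnl3* gave 0 in each.

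Among 13 kinases and factors, 3 were 2-fold lower in CCA, against 1.18% of all genes, and 6 in CCANT, against 2.46%. None was 2-fold higher in either, against 6.34% and 6.21%. The kinase genes *Jak1* (107.3, 112.1 and 109.6 CPM), *Jak2* (43.9, 42.3 and 42.4) and *Tyk2* (14.9, 15.1 and 15.9) were nearly equal between libraries. *Ciita*, the transactivator of MHC class II genes, was at 13.7, 2.92 and 1.58 CPM, log2 ratios of -2.23 and -3.12. *Irf8* had log2 ratios of -1.08 and -1.36, *Nlrc5*, the MHC class I transactivator, -0.76 and -1.26, and *Irf1* -0.56 and -0.94. *Batf2* had -0.78 and -1.05, *Stat2* -0.30 and -1.05, *Irf9* 0.04 and -0.52, and *Irf2* 0.02 and -0.07. *Irf7*, a gene typical of the type I response, was higher in CCA at a log2 ratio of 0.73 and lower in CCANT at -0.31.

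The 14 other GBP and IRG genes in the matrix included 10 with at least 50 UMIs. In CCA 6 of these 10 were at least 2-fold lower, against 1.18% of all genes, with a median log2 ratio of -1.54. In CCANT 10 of 10 were, against 2.46%, with a median of -2.42. *Gbp10* went from 38.5 CPM in Control to 9.51 in CCA and 2.43 in CCANT, log2 ratios of -2.02 and -3.99. *Gm12185* had -2.20 and -3.42, *F830016B08Rik* -2.01 and -3.10, *Tgtp2* -1.70 and -2.84, *Tgtp1* -1.63 and -2.96, and *Gbp8* -1.44 and -1.89. The mildest were *Gbp4* (-0.95 and -1.93), *Ifi47* (-0.91 and -2.00), *Gm4951* (-0.85 and -1.64) and *Gbp9* (-0.64 and -1.36).

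The other interferon genes, many of them typical of type I interferon, were given as a list. Of these 30, 2 were 2-fold lower in CCA and 4 were 2-fold higher, with a median log2 ratio of 0.10. Over all genes 1.18% were 2-fold lower and 6.34% higher in CCA, so 4 of 30 is no result about the list. Those lower were *Psmb9* (-1.09) and *Tap1* (-1.05), which serve MHC class I antigen processing, and those higher were *Cxcl10* (1.41), *Rsad2* (1.32), *Ifit1* (1.18) and *Oas2* (1.04), named after their values were seen. In CCANT 6 of the 30 were 2-fold lower, against 2.46% of all genes, and 0 higher, against 6.21%, with a median of -0.54. *Ifit1*, 66.7 CPM in Control and 151.5 in CCA, had 62.3 CPM in CCANT.

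Of 10 feedback genes and partners, 2 were 2-fold higher in CCA, against 6.34% of all genes, and 1 in CCANT, against 6.21%, which is near that share. *Socs3*, an inhibitor of cytokine signalling, was at 37.7, 139.4 and 136.6 CPM, log2 ratios of 1.89 and 1.86. *Usp18*, which dampens the type I receptor, had 1.22 and 0.30, and *Socs1* -0.11 and -0.50. Genes of the ubiquitin-like conjugation systems that GBPs and IRGs need for loading were close to Control. *Gabarap* and *Gabarapl2* had 0.20 and 0.16 in CCA and 0.20 and 0.19 in CCANT. *Atg3*, *Atg5*, *Atg7*, *Atg12* and *Atg16l1* ran from -0.15 to 0.07 in CCA and from -0.31 to 0.04 in CCANT.

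**Figure D4:**
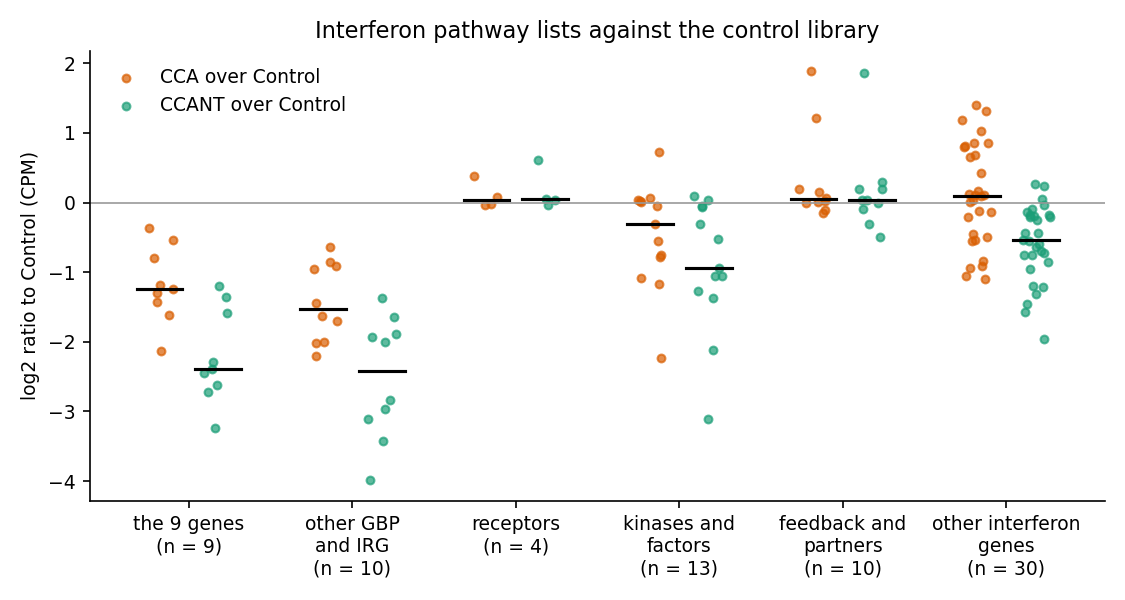
Log2 ratio to Control of each gene with at least 50 UMIs, for the 9 genes and 5 pathway lists, in CCA and in CCANT; black lines are medians. The 9 genes and the other GBP and IRG genes lie below 0 in both comparisons, 3 of the 4 receptors lie near 0, *Ifngr2* lies above 0 at 0.38 and 0.61, and the other interferon genes straddle 0 in CCA with a median of 0.10.

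Sums of cell type markers and the make-up of the cell groups were measured beside the members. The 12 T or NK markers summed to 4.02, 0.865 and 0.791 CPM, with 0, 1 and 2 of the 12 at 0. The 10 microglia or macrophage markers summed to 69.0, 64.2 and 63.1 CPM, and the 8 rod markers to 239.1, 632.3 and 1168 CPM, none at 0. The 6 B or plasma markers summed to 48.2, 13.2 and 30.3 CPM, the 7 cycling markers to 35.4, 324.5 and 148.0 CPM and the 9 MG markers to 14639, 12851 and 12039 CPM, none at 0. Their part in the members' levels was not tested. Restricted to MG-like clusters, the summed log2 ratios were -1.24 for CCA and -2.27 for CCANT. These cells were divided unlike between libraries: cluster 1 held 2743, 1381 and 785 kept cells, cluster 2 held 832, 1702 and 1571, and cluster 5 held 136, 323 and 413. In Control the 9 genes stood at 1689, 2910 and 3027 CPM in clusters 1, 2 and 5. Inside each of those clusters the CCA ratio was -1.37, -1.66 and -1.13, and the CCANT ratio -2.21, -2.76 and -2.65.

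Sex could be matched in part. CCANT cells with Y-linked transcripts held 486.2 CPM of the 9 genes and CCANT cells with *Xist* 340.8 CPM. The log2 ratio of *Xist* over Y-linked cells was -0.51 (-0.55 to -0.48), largest for *Iigp1* at -1.03. It was -0.71 (-0.77 to -0.65) for the 4 IRGs and -0.40 (-0.45 to -0.36) for the 5 GBPs. The IRGs thus differed by more than the GBPs within CCANT too. Y-linked CCANT cells over Y-linked Control cells gave -2.06 (-2.09 to -2.03). *Xist* CCANT cells over *Xist* CCA cells gave -1.29 (-1.32 to -1.26). Y-linked and *Xist* cells come from different mice, so sex and animal cannot be told apart within CCANT. The sex-matched ratios could not be matched for animal. For CCA against Control no cells of the same sex were at hand, and sex, animal and treatment cannot be told apart there.

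In Control cells the members were higher where more vector GFP was counted. Cells were grouped by their GFP UMIs after thinning to 8000 UMIs, and CPM were taken from their full-depth counts. The 9 genes stood at 1894 CPM in 2710 cells with no GFP UMI. They stood at 2314 CPM in 715 cells with 1 and 2523 CPM in 297 cells with 2 or more. The log2 ratio of the last over the first was 0.41 (0.39 to 0.44), led by *Iigp1* at 0.87 and *Gbp2* at 0.81, while *Irgm2* had -0.25. The order did not hold in the other libraries, which carried little GFP: for 0, 1 and 2 or more GFP UMIs, CCA cells held 835.7, 794.7 and 458.9 CPM and CCANT cells 410.8, 410.5 and 269.6, with 8 cells of 2 or more in each. Between CCA and Control cells with no GFP UMI the summed ratio was -1.18 (-1.19 to -1.17). GFP marks the Control vector alone, the minor part of the CCA mixture, so these cells were not matched for vector. When Control cells with any GFP UMI at full depth were left out and all CCA cells kept, the summed ratio was -1.07. In that setting 5 of 9 members stayed at least 2-fold lower, with no share over all genes computed. The ratio nearest 0 was that of *Gbp5*, at -0.08.

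Cycling cells held a lower level of the members in CCA. The sum was 573.6 CPM in 246 cycling CCA cells and 857.0 in 3406 MG-like CCA cells, a log2 ratio of -0.58 (-0.63 to -0.53). It was -1.18 for *Gbp2* and -1.004 for *Iigp1*. For *Gbp3* (-0.11) and *Gbp5* (0.11) the interval held 0. In CCANT the 68 cycling cells were at 409.4 CPM and the MG-like cells at 420.8, a log2 ratio of -0.04 (-0.15 to 0.07).

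A wider set of 9579, 10521 and 10890 barcodes, with no demand for tdTomato, was clustered and named by marker lists. The members and a list of interferon genes were left out of the clustering. *Cd274*, *Ddx60* and *Herc6* were not on that list and could enter it. Clusters of neurons, microglia or macrophages, T or NK cells and vessel cells were found among the sorted cells, and 1013, 1865 and 2157 cells stayed unnamed or mixed. The 5692, 4515 and 5004 MG-like cells of this set had 6 of 9 members 2-fold lower in CCA, against 1.18% of genes there. In CCANT 9 of 9 were, against 2.05%. In each class this share covers genes with at least 50 UMIs in that class, a floor not asked of the members. For each class the level was set beside what carried-over MG RNA would add, taken as the class's level of the MG gene *Glul* times the ratio of members to *Glul* in MG-like cells of that library.

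Rod-like and other neuron classes held far less of the members than MG-like cells. Rod-like cells held 120.8 CPM of the 9 genes in Control, 45.9 in CCA and 28.5 in CCANT, beside 98.2, 41.7 and 26.9 from *Glul*. In rod-like cells 7 of 9 members were at least 2-fold lower in CCA, where 0.973% of genes were, and 8 of 9 in CCANT, where 1.99% were. Amacrine-like cells held 266.1, 88.3 and 67.2 CPM, beside 228.0, 79.6 and 52.5 from *Glul*. Bipolar-like cells held 259.2, 102.9 and 103.3 CPM, beside 250.1, 90.5 and 63.0 from *Glul*, so the CCANT value stood above its carried-over level. Carried-over levels were computed for this clustering only. For amacrine-like cells with no tdTomato UMI the CCANT ratio went from -1.99 (-2.07 to -1.90) to -1.24 (-1.36 to -1.11). Of the members, 7 were 2-fold lower in amacrine-like cells of each library (1.82% of genes in CCA, 2.25% in CCANT), and 7 and 5 in bipolar-like cells (1.26% and 1.17%). Cone-like cells held 86.8, 36.8 and 24.1 CPM, beside 58.3, 24.6 and 16.7 from *Glul*. There 6 members were 2-fold lower in CCA (0.815%) and 8 in CCANT (0.833%), with the interval below 0 for 5 and 7. Ganglion-like cells held 143.3, 57.1 and 40.8 CPM, beside 118.9, 44.0 and 19.7 from *Glul*, with 6 members 2-fold lower in each (1.91% and 2.34%). The 30, 28 and 30 horizontal-like cells held 157.0, 88.9 and 43.0 CPM, beside 224.8, 58.2 and 23.6 from *Glul*. These cells had 3 and 8 members 2-fold lower (1.87% and 3.55%), with the interval below 0 for 3 and 6. Their CCANT ratio of -1.87 (-2.28 to -1.48) went to -0.87 (-1.35 to -0.41) in the 23 Control and 28 CCANT cells with no tdTomato UMI. The genes did not keep a single ratio: *Iigp1* was at 20.4 CPM in Control bipolar-like cells where 50.8 came from *Glul*, and *Gbp6* at 46.9 where 40.3 did.

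**Figure D5:**
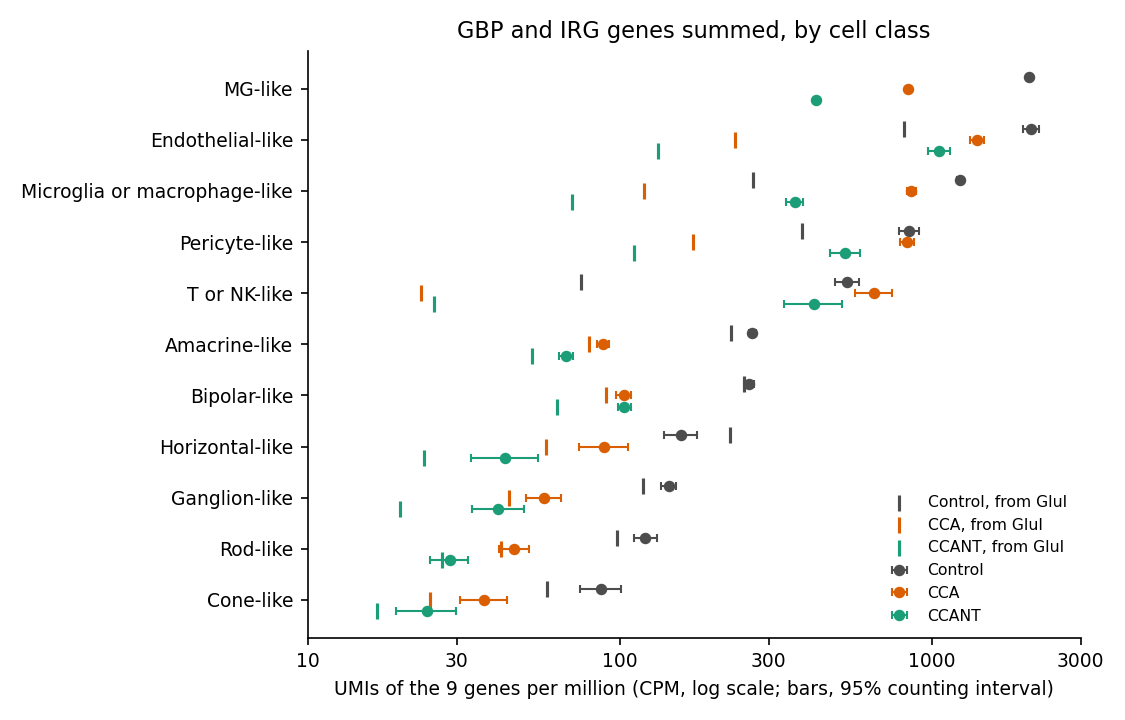
Summed CPM of the 9 genes (log axis) in MG-like cells and 10 other cell classes of the Control, CCA and CCANT libraries, with 95% counting intervals; vertical ticks mark what MG RNA would add at the level of *Glul*. Rod-like points lie near their ticks. Control horizontal-like cells lie below theirs, bipolar-, ganglion- and horizontal-like CCANT cells lie above theirs, and points of endothelial-like, microglia, pericyte and T or NK classes lie well to the right of theirs.

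Cells named microglia or macrophage-like carried the members above the carried-over level. The 222, 145 and 143 cells held 1231, 860.1 and 363.2 CPM, beside 267.1, 119.9 and 70.2 from *Glul*. The log2 ratio was -0.52 (-0.58 to -0.46) in CCA and -1.76 (-1.86 to -1.67) in CCANT. In CCA 0 of 9 members were 2-fold lower, where 3.42% of genes in these cells were, and in CCANT 9 of 9 were, where 3.96% were. *Gbp5* was at 102.3 CPM in Control microglia and 36.1 in Control MG-like cells. *Gbp6* was the other way round, at 83.2 and 329.7 CPM. *Iigp1* was at 352.3 CPM in Control microglia, 271.1 in CCA and 84.1 in CCANT. Restricted to cells with no tdTomato UMI, the summed CCA ratio was -0.23.

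Pericyte-like cells (55, 98 and 40) held 844.5, 832.7 and 526.9 CPM. Their CCA ratio of -0.02 (-0.15 to 0.11) turned to 0.27 (0.09 to 0.45) in cells with no tdTomato UMI, and the CCANT ratio of -0.68 (-0.88 to -0.49) went to -1.41 (-1.72 to -1.11). In CCA 0 of 9 members were 2-fold lower, where 1.05% of genes were, and in CCANT 3 of 9, where 3.86% were. *Gbp2* (136.1 against 71.1 CPM) and *Gbp3* (64.1 against 32.4) were higher in CCA than in Control. *Irgm1* (49.6 against 86.1) and *Iigp1* (197.1 against 268.2) were lower. These were the 4 members whose interval did not hold 0, an interval that leaves out the spread between cells. Endothelial-like cells (25, 47 and 31) were at 2079, 1398 and 1052 CPM. Their CCA ratio of -0.57 (-0.69 to -0.45) turned to 0.77 (0.55 to 0.99) in the 19 Control and 36 CCA cells with no tdTomato UMI. Their CCANT ratio of -0.98 (-1.13 to -0.84) turned to 0.53 (0.29 to 0.77) with 26 CCANT cells, so no direction can be given for this class. With all its cells, 3 of 9 members were 2-fold lower in CCA, where 4.63% of genes were, and 5 of 9 in CCANT, where 3.8% were. *Gbp5*, at 89.0, 139.4 and 124.9 CPM, and *Gbp3*, at 146.4, 198.6 and 110.6 CPM, were higher in CCA.

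T or NK-like cells (63, 29 and 20) came from a further split of a mixed lymphoid cluster of 115, 41 and 47 cells. They held 535.3, 652.4 and 418.3 CPM, from 476, 212 and 89 UMIs. Their CCA ratio was 0.29 (0.04 to 0.52). In the T or NK-like cluster found at resolution 1, another division of the cells with 77 and 32 cells, it was -0.75 (-0.95 to -0.55). Its sign thus depends on the clustering. The CCANT ratio was -0.36 (-0.70 to -0.03), and -1.13 (-1.40 to -0.87) in the cluster at resolution 1. In CCA 0 of 9 members were 2-fold lower, where 4.32% of genes were, and in CCANT 1 of 9, *Gbp2*, where 7.61% were. The 63, 29 and 20 cells also held 54 of the 75 *Ifng* UMIs of the wider Control set, 25 of the 43 in CCA and 15 of the 17 in CCANT, in 17, 12 and 7 cells. As CPM that was 60.7 (45.6 to 79.2), 76.9 (49.8 to 113.6) and 70.5 (39.5 to 116.3), intervals that overlap. Over all cells of the wider set *Ifng* was at 0.345 (0.272 to 0.433), 0.205 (0.149 to 0.277) and 0.081 (0.047 to 0.129) CPM. Here the CCANT interval lay below both others, and the cause was not tested. T or NK-like cells made up 0.658% of the Control set, 0.276% of the CCA set and 0.184% of the CCANT set, shares that the tdTomato sort can set. B or plasma-like cells were too few to read, at 14, 4 and 8.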

How the data were processed

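The authors aligned the reads and counted UMIs with Cell Ranger 6.1.1 on mm10, per the labels, and deposited whole-number counts per gene and cell for 3 libraries and a joint table of counts for the cells they kept. GFP and tdTomato are features of the matrices. Library counts were taken for the barcodes of the joint table and summed to CPM. Barcodes with 2000 or more features, no more than 100000 UMIs and up to 15% mitochondrial UMIs made the wider set. It was clustered with scanpy (20 components, 2000 variable genes, resolution 0.5), a mixed lymphoid cluster was clustered again on 5 components to part T or NK-like from B or plasma-like cells, and clusters were named by a rule set after clusters were seen. A name needed a list whose median marker exceeded the median cluster by 1.5 (log2, 5 CPM added), at least 3 raised markers and, outside MG, a marker among the 10 leading genes. A cluster with another such list within 3 (log2), or MG markers beside its own, was called mixed, and one led by other markers stayed unnamed. Per the study's methods, intronic reads were counted, and doublets found by DoubletFinder were excluded from the cells of the joint table. In the wider set doublets were not removed, since Scrublet marked 0% of cells in Control and CCANT and 4.51% in CCA and had not worked. Intervals are exact Poisson, ratio or Clopper-Pearson. Ratios and co-expression were tried on simulated data. The counts simulated for ratios were Poisson totals with no spread between cells or mice, so their interval coverage says nothing about such spread. The members, lists and tests were chosen with earlier results of these data known. All 9 members were named, as were list genes with a mean of at least 5 CPM, and the 10 genes most like the members, of which some are not reported here. Levels were not compared between genes, since counts are of 3′ ends. Alternatives covered scaling, cells, depth, sex, GFP and clustering. Coordinates are GENCODE vM21 (GRCm38), promoters RefSeq.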

Additional observations from a re-analysis of the deposited data

Results flagged for a closer look

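The summed CCA over Control log2 ratio of the 9 genes had opposite signs in 2 cell classes. It was -1.28 in MG-like cells and 0.29 in T or NK-like cells, with 1 library per group, and the difference was not tested. The positive value was found after a further split of a mixed lymphoid cluster. In the T or NK-like cluster found when the wider set was clustered at resolution 1 it turned to -0.75, so the signs then were the same. *Ifng* itself, outside the kept MG, was counted in T or NK-like cells of each library, at 54 UMIs in Control, 25 in CCA and 15 in CCANT, above the 3 counts that a count of 0 allows.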

How the results depend on the processing

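No paired analysis was possible because each group is 1 library. The single-gene ratios stayed below 0 in all 81 CCA and 90 CCANT alternatives. The summed CCA ratio, -1.28, became -1.36 with median-of-ratios size factors, -1.24 in MG-like clusters, -1.34 as a mean of cell CPM, -1.35 at 8000 UMIs, -1.07 with GFP-free control cells, and -1.37, -1.66 and -1.13 in MG-like clusters 1, 2 and 5 (chosen after seeing the data). The CCANT ratio, -2.31, became -2.35 with size factors, -2.27 in MG-like clusters, -2.09 with GFP-free control cells, -2.06 in Y-linked CCANT cells, and -2.21, -2.76 and -2.65 in those clusters. Of 9 members, 4 to 7 were 2-fold lower in CCA and 8 or 9 in CCANT. For most alternatives no share over all genes was computed. At a mean of 20 CPM the background shares were 0.407% and 0.985%. Median rho in Control, CCA and CCANT became 0.27, 0.35 and 0.13 by Pearson, and 0.28, 0.26 and 0.10 at 12000 UMIs. In other classes, resolution 1 moved bipolar to -1.15 and turned T or NK to -0.75. Cells with no tdTomato UMI moved amacrine to -1.28 and microglia to -0.23, and turned pericyte to 0.27 and endothelial to 0.77 (all CCA over Control; CCANT over Control went to -1.24 in amacrine, -0.87 in horizontal and -1.41 in pericyte, and turned to 0.53 in endothelial). Resolution 1 took CCANT T or NK to -1.13 and CCANT bipolar from -1.33 to -1.50. CCANT bipolar was at -1.44 in cells with no tdTomato UMI. The causes were not tested. Leaving out Scrublet doublets was not run. Shallow cells limit shares of *Gbp5*, and single libraries give no biological error.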
